A study of Schizosaccharomyces pombe with 8 samples.

Results

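The Paf1 complex genes of the fission yeast Schizosaccharomyces pombe are described here by the small RNA counted at them. They were taken from the deposited table by systematic name: paf1 (SPAC664.03), tpr1 (SPAC27D7.14c), leo1 (SPBC13E7.08c), cdc73 (SPBC17G9.02c) and prf1 (SPBC651.09c). All 5 were found, with 15 of the table's 17962 rows: a transcript, a 5′ UTR and a 3′ UTR each, and 0 intron rows. The choice did not use measured values, but it was made with earlier results of these data known.

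The Paf1 complex binds RNA polymerase II during elongation and helps with histone H2B ubiquitination, histone methylation and the formation of transcript 3′ ends. Paf1 and Tpr1 (the Ctr9 homologue) form its core, Leo1 pairs with Paf1, Cdc73 joins the core, and Prf1, the Rtf1 homologue, is bound more loosely in fission yeast. In this organism small RNAs are loaded onto Argonaute and can direct heterochromatin to matching genes, and the Paf1 complex is known as a brake on that process.

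Small RNA of 18 to 28 nt came from cultures in YES, a rich medium, at 30 °C and an OD600 of 0.5, with 1 library for each of 8 strains. The labels give every strain, wild type included, the element ade6-hp+, known from the study as a source of hairpin RNA against ade6. Beside wild type, 2 strains carried a deletion, of Paf1 or of Leo1. The other 5 are labelled with an amino acid change (Paf1-G104R and Cdc73-G313R) or with a stop (Leo1-W157Stop, Rot1-Q472Stop and Paf-1Q264Stop). The study is known for asking how such mutants alter silencing by small RNA. Nothing in the labels says how many clones or cultures stand behind a strain, and with 1 library each no difference has a replicate check.

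Recovered reads, summed over elements that partly overlap, numbered 917877 to 6422602 per library. The rRNA class took 4.28% of the linear total in wild type and 60.02% in Cdc73-G313R. There the median log2 difference from wild type was -2.00, over elements at 5 or more on the deposited log2 scale in either library. Elements overlapping a tRNA gene by at least 40 nt held a median of 7778 wild-type reads on the opposite strand (7 elements) and 50.8 on the same strand (6 elements). The reads counted at an element may thus lie largely on its other strand, and for the 5 genes the strand was not tested.

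Levels are given per length on the linear scale behind the deposited log2(level + 8) values. The body of a gene is its transcript without its UTR rows. For all 5 genes it has the same start and end as the reference coding sequence with its introns. A body was counted as raised at a level ratio to wild type of at least 2 with a 95% exact interval above 1, and as lowered at 0.5 or less with an interval below 1. Intervals cover counting error only. A lower level can mean fewer cells with such reads or fewer reads per cell, which bulk libraries cannot tell apart. Where the label names a gene as deleted, the sequence counted may itself be missing. The labels do not give the extent of the deletions.

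The gene that was raised and the gene that the label names differed in 3 libraries. In each of the 5 point-allele libraries exactly 1 of the 5 bodies was raised. In Leo1-W157Stop it was leo1 and in Paf-1Q264Stop paf1, the genes the labels name. In the library labelled Paf1-G104R it was prf1, in that labelled Cdc73-G313R paf1, and in that labelled Rot1-Q472Stop cdc73. Strain names below are those of the labels, and every direction in these 3 libraries carries that difference. The 3 genes raised there, prf1, paf1 and cdc73, are the genes that these 3 labels name if Rot1-Q472Stop is read as an allele of prf1, each under another label. Whether the 3 labels were exchanged was not tested, and if they were, each value in these libraries belongs to another of the 3 strains.

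The reference codons at the labelled positions are shown because they place each allele in its gene. They are from the RefSeq assembly ASM294v3, 5′ to 3′ on the coding strand, with the codon in capitals and 12 bases on each side.
paf1, codon of Paf1-G104R: gcaggaggctctGGAtccacgcacctt
cdc73, codon of Cdc73-G313R: catcatgttaaaGGAtttttggttcaa
prf1, codon of Rot1-Q472Stop: ggaacaagtcctCAAccttcaccttcc
leo1, codon of Leo1-W157Stop: caaattgtacaaTGGtctgatggttca
paf1, codon of Paf-1Q264Stop: gcggaagagataCAAgctaaagttaat

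Each codon encodes the residue that the label names, glycine, glycine, glutamine, tryptophan and glutamine in this order. They lie at chr1:1709168-1709170 (plus strand), chr2:2170168-2170170, chr2:1255874-1255876 and chr2:3054424-3054426 (minus strand), and chr1:1709648-1709650 (plus strand). No other of the 5 genes has the labelled residue at the labelled position. The reference gene with the symbol rot1 encodes 232 residues, and of the 5 genes prf1, with 560, is the one that has the labelled glutamine. Counted from the first base of the coding sequence, a single change gives the labelled stop in prf1 (C1414T) and in paf1 (C790T). The glycine codons become arginine by G310A or G310C in paf1 and by G937A or G937C in cdc73, and the tryptophan codon of leo1 becomes a stop by G470A or G471A. Which base a strain has changed was not analysed here. The labelled residues stand at 22.8% of the Paf1 protein, 84.4% of Cdc73, 84.3% of Prf1, 36.6% of Leo1 and 57.9% of Paf1.

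**Figure D1:**
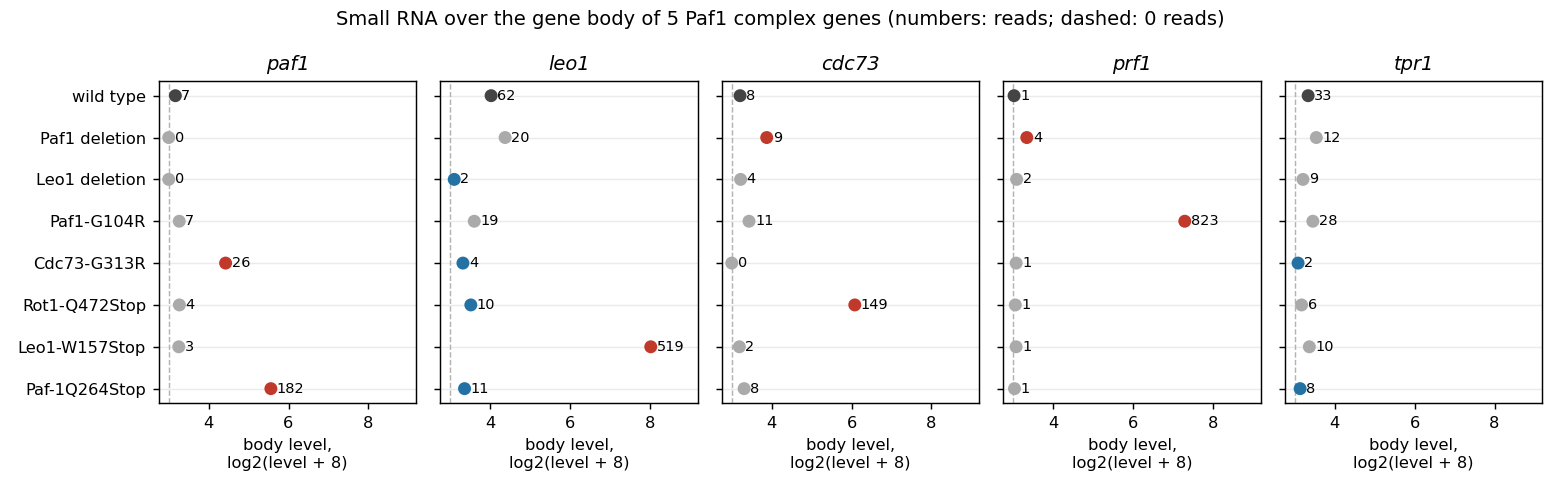
Body level on the deposited log2(level + 8) scale (x axis) in each of the 8 libraries (rows), 1 panel per gene. Numbers are reads, red marks a raised and blue a lowered body against wild type (dark grey), and the dashed line at 3 is 0 reads. prf1 with 823 reads in Paf1-G104R and leo1 with 519 in Leo1-W157Stop stand furthest from the other libraries, while tpr1 stays close to the floor in all 8.

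Paf1 is the subunit that names the complex. Over the paf1 body (1408 nt of the transcript on chromosome 1, 1708728 to 1710347) wild type held 7 reads, Paf1 deletion 0, Leo1 deletion 0, Paf1-G104R 7, Rot1-Q472Stop 4, Paf-1Q264Stop 182, Leo1-W157Stop 3 and Cdc73-G313R 26. Per length the level was 39.1 in Paf-1Q264Stop and 13.5 in Cdc73-G313R, while the other 6 libraries lay between 0 and 1.63. 2 libraries were thus high. The level ratio to wild type was 40 (19.0 to 101) in Paf-1Q264Stop and 13.7 (5.81 to 37.5) in Cdc73-G313R. Paf-1Q264Stop also stood above Cdc73-G313R, by a ratio of 2.91 (1.92 to 4.58), and Cdc73-G313R above the next library, Rot1-Q472Stop, by 9.32 (3.23 to 36.8). No other neighbours in the order of the 8 levels had an interval above 1.

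Among all transcripts with at least 1 body read, raised bodies were rare in Cdc73-G313R, at 0.391% of 4600, and in Paf-1Q264Stop, at 3.21% of 4764. By the lower bound of its ratio paf1 ranked 7 in the former and 8 in the latter. With the common total replaced by 3 other scalings its ratio ran from 26.0 to 55.0 in Cdc73-G313R and from 42.0 to 52.9 in Paf-1Q264Stop. The library labelled Paf1-G104R had a paf1 ratio of 1.63 (0.489 to 5.46), an interval that includes 1. In Paf1 deletion the wild-type level predicted 1.47 reads, and 0 reads allow a level of up to 2.01 against 0.980 in wild type, so a loss was not detectable. In Leo1 deletion 0 reads stood against 3.27 predicted, with an upper bound of 1.49 for the ratio.

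Tpr1, a tetratricopeptide repeat protein, was the only one of the 5 genes with no raised body against wild type in any mutant library, although with rRNA left out of the total it passed in Paf1 deletion, at 2.33. Over its body (3120 nt on chromosome 1, transcript 4536975 to 4540298) wild type held 33 reads, Paf1 deletion 12, Leo1 deletion 9, Paf1-G104R 28, Rot1-Q472Stop 6, Paf-1Q264Stop 8, Leo1-W157Stop 10 and Cdc73-G313R 2. The levels lay between 0.467 in Cdc73-G313R and 3.62 in Paf1 deletion, with 2.09 in wild type, and no library stood above its neighbour in the order by an interval above 1. It was lowered in Cdc73-G313R, at 0.224 (0.0261 to 0.876), and in Paf-1Q264Stop, at 0.373 (0.149 to 0.824). The former call was lost under all 3 other scalings, where the ratio reached 0.898, and the latter was kept under 1 of 3.

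Leo1 forms a heterodimer with Paf1. The leo1 transcript (chromosome 2, 3052520 to 3055287, minus strand) has a 3′ UTR row of 1085 nt, so that its body of 1480 nt makes up 53.5% of its length. Over the body wild type held 62 reads, Paf1 deletion 20, Leo1 deletion 2, Paf1-G104R 19, Rot1-Q472Stop 10, Paf-1Q264Stop 11, Leo1-W157Stop 519 and Cdc73-G313R 4. Leo1-W157Stop stood far above every other library, and Leo1 deletion was the lowest.

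The level was 252 in Leo1-W157Stop, 12.7 in the next library, Paf1 deletion, and 8.26 in wild type. Against wild type the ratio was 30.4 (23.3 to 40.3) in Leo1-W157Stop, and against Paf1 deletion Leo1-W157Stop was higher by 19.7 (12.7 to 32.6). There leo1 ranked 6 of 4731 transcripts, of which 5.94% were raised. In Leo1 deletion 2 reads stood against 29.0 predicted, a ratio of 0.0691 (0.00818 to 0.260). The label names Leo1 as deleted there, so this count is not that of an intact gene. In that library 10.8% of 4800 transcripts were lowered, and 21.8% of those with at least 10 body reads in the higher library. Both calls held under the 3 other scalings.

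Lower leo1 bodies were also found in strains whose labels do not name Leo1, which are not like the deletion in that respect. They were lowered in Paf-1Q264Stop, at 0.273 (0.130 to 0.523), in Cdc73-G313R, at 0.239 (0.0630 to 0.642), and in Rot1-Q472Stop, at 0.416 (0.190 to 0.817). Lowered bodies made up 9.32%, 27.7% and 9.24% of all transcripts in these libraries. Of those with at least 10 body reads in the higher library they made up 18.3%, 55.4% and 18.7%. The call in Paf-1Q264Stop was kept under the 3 other scalings, with ratios up to 0.361, while those in Cdc73-G313R (up to 0.956) and Rot1-Q472Stop (up to 0.554) were lost. Paf1-G104R, at 0.501 (0.283 to 0.848), missed the threshold of 0.5.

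The body and the UTRs of leo1 moved apart in its deletion. The 5′ UTR row (203 nt) held 1 read in wild type, 15 in Leo1 deletion and 21 in Leo1-W157Stop, with 2 in Paf1 deletion and 0 in the other 4 libraries. Its ratio to wild type was 32.1 (4.94 to 1352) in Leo1 deletion, where 2.58% of 5′ UTRs were raised, and 76.3 (12.3 to 3157) in Leo1-W157Stop, where 2.95% were. At the 3′ UTR, 168 wild-type reads stood against 198 in Leo1 deletion, a ratio of 2.52 (2.04 to 3.12) in a library with 0.694% of 3′ UTRs raised. In Leo1-W157Stop the 3′ UTR stayed near wild type, at 53 reads and 1.15 (0.826 to 1.57) times its level. The body thus held 0.930% of the transcript's reads in Leo1 deletion (0.113% to 3.32%), 87.5% in Leo1-W157Stop (84.6% to 90.1%) and 26.8% in wild type (21.2% to 33.0%). Over the whole transcript the deletion had a ratio of 1.99, on the other side of 1 from its body.

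The element on the other strand of leo1 did not share the raised level. The transcript SPBC13E7.07 (plus strand) spans all 2768 nt of leo1 on the opposite strand, and its 3′ UTR row overlaps leo1 by 1955 nt. Against 241 wild-type reads that row held 40 in Leo1-W157Stop, or 0.603 (0.420 to 0.846) times the level, where leo1 itself was at 30.4. In Leo1 deletion it held 74 reads, a ratio of 0.657 (0.500 to 0.856). The remaining body of SPBC13E7.07, opposite part of the leo1 3′ UTR, was raised in Leo1 deletion at 2.01 (1.41 to 2.88), close to the 2.52 of that 3′ UTR.

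Cdc73 is the homologue of human parafibromin. Over its body (1270 nt on chromosome 2, transcript 2169820 to 2171436, minus strand) wild type held 8 reads, Paf1 deletion 9, Leo1 deletion 4, Paf1-G104R 11, Rot1-Q472Stop 149, Paf-1Q264Stop 8, Leo1-W157Stop 2 and Cdc73-G313R 0. Rot1-Q472Stop alone was high, at a level of 59.7, against 6.67 in Paf1 deletion and 2.79 or less in the other 6. The ratio was 48.0 (23.8 to 113) to wild type and 8.94 (4.58 to 19.9) to Paf1 deletion. It ranked 8 of 4794 transcripts there, of which 8.43% were raised, and other scalings gave 59.1 to 64.0.

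In Paf1 deletion cdc73 was also raised, at 5.37 (1.84 to 16.0), but so were 35.2% of 4897 transcripts in that library, and 2 of the 5 genes is near that share. Against the 7 other libraries together its ratio there was 0.865, but that sum holds the 149 reads of Rot1-Q472Stop and cannot check the call. In the library labelled Cdc73-G313R 0 reads stood against 2.16 predicted, so a loss of cdc73 reads was not detectable there. The UTRs followed the body in Rot1-Q472Stop. Its 5′ UTR row held 38 reads against 5, or 19.6 (7.70 to 63.8) times the wild-type level, and its 3′ UTR row 13 against 6, or 5.59 (1.98 to 17.9). In that library 4.92% of 5′ UTRs and 2.87% of 3′ UTRs were raised.

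Prf1 carries the Plus3 domain of the Rtf1 family. It had the lowest wild-type level and the largest ratio among the 5 genes. Over its body (1780 nt on chromosome 2, transcript 1255392 to 1257425, minus strand) Paf1-G104R held 823 reads, Paf1 deletion 4, Leo1 deletion 2, and wild type and the other 4 libraries 1 each. The level was 149 in Paf1-G104R and 0.111 to 2.12 elsewhere, so 1 library held 97.4% of the level summed over the 8. The ratio to wild type was 1345 (241 to 53169), with a wide interval because wild type had 1 read. Against the next library, Paf1 deletion, it was 70.4 (27.4 to 259).

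In Paf1-G104R prf1 ranked 3 of 4801 transcripts, behind vtc4 and bub1, the neighbours of ade6, and 4.64% of bodies were raised. The deposited transcript level was 7.19 on the log2 scale there and 3.03 to 3.37 in the other libraries. Its 5′ UTR row of 39 nt held 30 reads against 0 in wild type, 16.3-fold higher when wild type is set at 3 reads, with an exact lower bound of 12.49. The 3′ UTR row of 215 nt held 21 reads against 1, a ratio of 34.3 (5.52 to 1419). Raised 5′ and 3′ UTRs made up 2.39% and 2.34% in that library. In the library labelled Rot1-Q472Stop prf1 had 1 body read where 0.388 was predicted. In Paf1 deletion its ratio of 19.1 (1.89 to 941) rests on 4 reads against 1. Against the 7 other libraries together it was 0.0843, but that sum holds the 823 reads of Paf1-G104R and cannot check the call.

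Of the 35 comparisons of a gene with wild type, 7 were raised, 6 lowered and 22 neither. Paf1 deletion had 2 raised bodies, beside 35.2% of all transcripts. Paf1-G104R (beside 4.64%), Cdc73-G313R (0.391%), Rot1-Q472Stop (8.43%), Leo1-W157Stop (5.94%) and Paf-1Q264Stop (3.21%) had 1 each. Paf-1Q264Stop had 2 lowered bodies, beside 9.32%. Rot1-Q472Stop had 1, beside 9.24%, and Leo1 deletion 1, beside 10.8%, at the gene that its label names as deleted. No body was raised in Leo1 deletion, where 5.1% of transcripts were. None was lowered in Paf1 deletion, Paf1-G104R or Leo1-W157Stop, where 4.31%, 4.39% and 6.49% were. Cdc73-G313R had 2 lowered genes, leo1 and tpr1, beside 27.7% of all transcripts. These shares include transcripts with too few reads for a lowered call. Of transcripts with at least 10 body reads in the higher library, 55.4% were lowered in Cdc73-G313R. At that limit the share was 21.8% in Leo1 deletion, 18.7% in Rot1-Q472Stop and 18.3% in Paf-1Q264Stop.

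**Figure D2:**
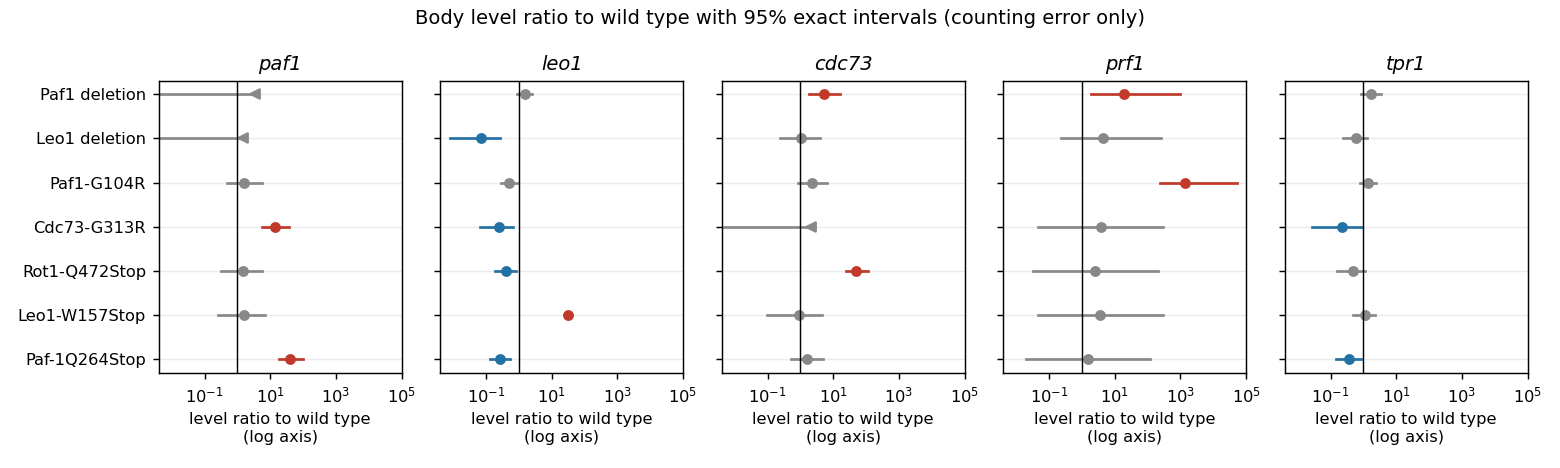
Body level ratio to wild type (x axis, log scale) in the 7 mutant libraries (rows), 1 panel per gene, with 95% exact intervals as bars. Triangles at the upper bound mark 0 reads in the mutant, red is raised, blue is lowered and grey is neither. 7 of 35 ratios are raised and 6 are lowered, and 5 of the raised ones, at 13.7 or more with a lower bound above 5, are in the 5 point-allele libraries.

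In wild type the order of body levels was leo1 at 8.26, tpr1 at 2.09, cdc73 at 1.24, paf1 at 0.980 and prf1 at 0.111. leo1 exceeded tpr1 by 3.96 (2.56 to 6.24) and paf1 exceeded prf1 by 8.85 (1.14 to 399), while tpr1, cdc73 and paf1 could not be ordered within counting error. All 5 had a higher level per length over the 3′ UTR than over the body. The 3′ UTR levels were 33.4 for paf1, 30.5 for leo1, 9.86 for tpr1, 6.92 for cdc73 and 0.917 for prf1. For prf1 each part held 1 read, so its order only reflects their lengths. A higher 3′ UTR is the usual order, since the 3′ UTR exceeded the body in 70.3% of 4594 transcripts in wild type. Of the 5 genes 3 did so in Paf1 deletion (58.7% of all transcripts), 4 in Leo1 deletion (63.0%), 4 in Paf1-G104R (65.2%) and 2 in Cdc73-G313R (52.4%). Rot1-Q472Stop had 4 (61.4%), Leo1-W157Stop 3 (54.8%) and Paf-1Q264Stop 4 (69.4%), so that the 8 counts of 5 stand beside shares of 52.4% to 70.3%.

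The raised genes did not share 1 profile along the transcript. For prf1 in Paf1-G104R the levels of 5′ UTR, body and 3′ UTR were 248, 149 and 31.5, and for cdc73 in Rot1-Q472Stop they were 110, 59.7 and 38.7. Both were highest at the 5′ end, prf1 over a row of 39 nt. No interval was computed for the order of levels within a transcript, and the cdc73 3′ UTR held only 13 reads. For leo1 in Leo1-W157Stop the body was highest, with 74.1, 252 and 35.0. For paf1 in Paf-1Q264Stop the levels were 3.23, 39.1 and 54.0, and the 3′ UTR, with 21 reads, had a ratio to wild type of 1.62 (0.833 to 3.14) while the body had 40. In Cdc73-G313R paf1 held 1 read over the 5′ UTR, 26 over the body and 0 over the 3′ UTR, where wild type had 20 and where 35.8% of 3′ UTRs were lowered. In Paf1 deletion the paf1 5′ UTR held 4 reads against 0, 6.37-fold higher with wild type at 3 reads and an exact lower bound of 3.15, beside 8.68% of 5′ UTRs raised. The tpr1 5′ UTR held 0 reads in all 8 libraries.

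**Figure D3:**
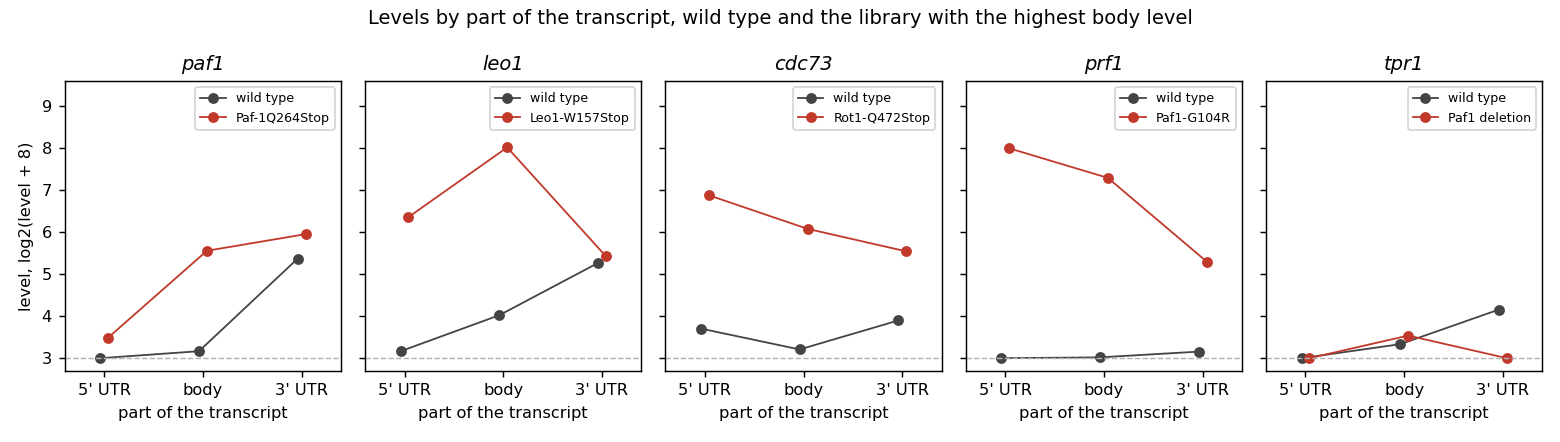
Level on the log2(level + 8) scale (y axis) over the 5′ UTR, body and 3′ UTR of each gene, in wild type (dark grey) and in the library with its highest body level (red). The dashed line at 3 is 0 reads. In wild type all 5 genes are higher over the 3′ UTR than over the body, prf1 with only 1 read in each. In the red libraries the levels of prf1 and cdc73 fall from the 5′ to the 3′ end and leo1 peaks over the body. No interval was computed for these orders.

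Elements beside the genes were examined next, within 10 kb on either side. Around prf1 in Paf1-G104R, 0 of 9 transcripts were raised, where 4.64% of all were. rpc1, which encodes a subunit of RNA polymerase III and lies 896 nt away, held 1 body read against 8 in wild type. nse5, 27 nt away on the other strand, held 2 against 0, and its 5′ UTR 9 against 2. Around leo1 in Leo1-W157Stop 0 of 12 were raised, beside 5.94% of all, with vrp1, 2 nt away, at 0.848 (0.314 to 1.97) and brf1 at 1.02 (0.613 to 1.64). Around paf1 0 of 10 were raised in either library where paf1 was, beside 0.391% of all in Cdc73-G313R and 3.21% in Paf-1Q264Stop. With so few neighbours, counts of 0 are near these shares. In Paf-1Q264Stop its neighbours rps1602 and arp8 had ratios of 1.03 (0.213 to 4.33) and 0.962 (0.248 to 3.33).

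At cdc73 the transcripts on both sides were raised as well. In Rot1-Q472Stop 4 of 10 transcripts within 10 kb were raised, in a library with 8.43% raised overall. prp16, a splicing helicase gene whose 3′ end overlaps that of cdc73 by 114 nt on the other strand, held 123 body reads against 15, a ratio of 21.1 (12.3 to 38.9). krs1, which encodes a lysine tRNA ligase and lies 172 nt upstream of cdc73 on the same strand, held 121 against 29, a ratio of 10.8 (7.13 to 16.7). pwp1, 3824 nt away, held 20 against 3, a ratio of 17.2 (5.10 to 90.4), and his2, 8529 nt away, had 5.16 (1.61 to 19.2). nup85, beyond krs1, was not raised. The prp16 body was raised in Paf1 deletion at 7.96, Leo1 deletion at 2.85 and Leo1-W157Stop at 3.15 too, and his2 in these 3 libraries at 19.1, 4.28 and 6.54. The prp16 3′ UTR, which holds the overlap with cdc73, had 11 reads in Rot1-Q472Stop against 79 in wild type, a ratio of 0.359, and its ratios in the 7 mutant libraries ran from 0.0468 to 0.455. In Paf1 deletion between 3 and 7 transcripts were raised around each of the 5 genes, beside its general share of 35.2%.

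**Figure D4:**
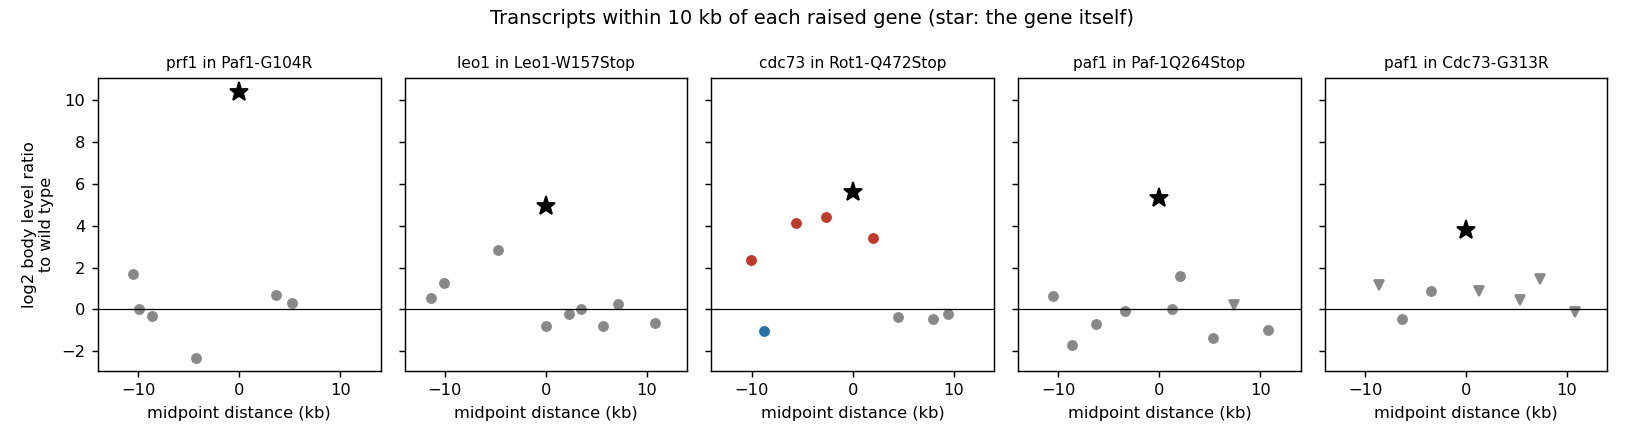
Log2 body level ratio to wild type (y axis) of transcripts within 10 kb against the distance of their midpoints from the gene's (x axis, kb). Panels show the raised gene of each point-allele library. The 2 genes raised in Paf1 deletion are not shown. The star is the gene, red is raised, blue is lowered, and triangles are bounds with 0 reads set at 3. In the libraries shown no neighbour of prf1, leo1 or paf1 is raised, while cdc73 in Rot1-Q472Stop has 4 raised neighbours.

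Whether other genes were high in 1 library alone was asked over the 1834 transcripts with at least 20 body reads in some library. The highest library exceeded the second by a median ratio of 1.39, and the lower bound of that ratio passed 5 for 22 transcripts, or 1.20%. prf1, with 27.4, ranked 2 and leo1, with 12.7, ranked 3 behind the phosphatase gene ptc2 in Leo1 deletion, with 33.2. cdc73 ranked 26 with a lower bound of 4.58, paf1 202 with 1.92 because 2 libraries were high, and tpr1 1522. prf1 and cdc73 reached 20 reads only in their highest library, so the value that admitted them also set their rank. leo1 also passed in wild type, with 62 reads. The ranks are descriptions only. Of the 22, 13 were highest in Paf1 deletion and 5 in Leo1 deletion. The 5 point-allele libraries held 2 of them, which were prf1 and leo1.

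**Figure D5:**
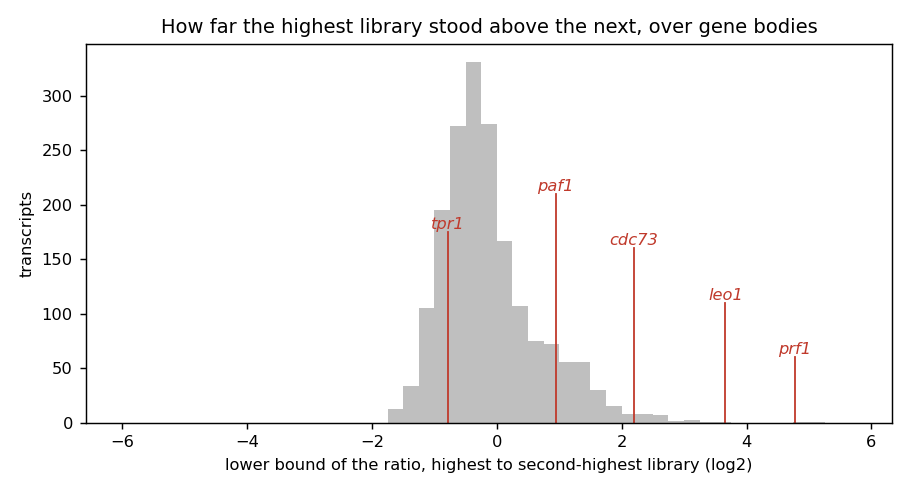
Number of transcripts (y axis) by the lower bound of the ratio of the highest to the second-highest library over the body (x axis, log2), for 1834 transcripts with at least 20 reads in some library. Red lines mark the 5 genes, and prf1 (27.4) and leo1 (12.7) lie in the far right tail while tpr1 lies within the bulk.

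Between the 5 genes, Pearson's r of log2(level + 8) over the 8 libraries ran from -0.61 to 0.46 in 10 pairs. These are descriptions over libraries that share their scaling, and for a gene high in 1 library r rests on that library. Only transcripts with at least 20 body reads in some library were compared with the 5 genes. The most similar of 1818 transcripts to cdc73 was its neighbour krs1 (r = 0.989), followed by tts1 (0.938) and taf8 (0.896). For prf1 they were alo1 (0.947), cha4 (0.809) and SPBC83.12 (0.806), of which alo1 held 21 reads in Paf1-G104R, against 823 at prf1. alo1 and SPBC83.12 reached 20 reads only in that library, where prf1 was high, so the limit itself favoured their likeness to prf1. For leo1 they were spf31 (0.889), rsm27 (0.884) and uba2 (0.871), for paf1 pcp1 (0.679), dgc1 (0.574) and cox24 (0.548), and for tpr1 yea4 (0.974), SPAC1556.06.1 (0.960) and cdc12 (0.960).

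Genes that work with the complex were counted by the same rule, from 5 lists. They covered elongation factors (13 genes), H2B ubiquitination and H3 methylation (13), 3′ end formation and termination (11), RNAi (12) and heterochromatin (13, of which pcu4 was not matched). In Paf1 deletion 4 of 12 elongation genes with reads were raised, 5 of 13, 2 of 11, 4 of 12 and 7 of 12 in this order, against 35.2% of all transcripts. Lowered there were 2 of 11 genes of 3′ end formation and 0 in each other list, beside 4.31%. In Cdc73-G313R 3 of 13, 6 of 12, 5 of 10, 8 of 11 and 4 of 12 were lowered, against 27.7%. Of transcripts with at least 10 body reads in the higher library 55.4% were lowered there. Raised in Cdc73-G313R was 1 of 10 genes of 3′ end formation, from 4 reads against 2, and 0 in each other list, beside 0.391%. In the other 5 libraries each list had 0 or 1 raised genes, where 3.21% to 8.43% of all transcripts were raised. Lowered genes numbered 0 to 4 per list there. The highest counts were 4 of 10 genes of 3′ end formation and 4 of 11 RNAi genes in Leo1 deletion, where 10.8% of all transcripts were lowered. In Rot1-Q472Stop 3 of 11 genes of 3′ end formation were lowered, beside 9.24%. In Paf-1Q264Stop 3 genes were lowered in each list but RNAi, which had 2, beside 9.32%. With at least 10 body reads the lowered shares were 21.8% in Leo1 deletion, 18.7% in Rot1-Q472Stop and 18.3% in Paf-1Q264Stop. The median ratio over a list, with genes at 0 set at 3 reads, ran from 0.285 to 2.90 over lists and libraries, and over all transcripts from 0.872 to 2.87. Without that setting the medians ran from 0.0560 to 2.80, and from 0.0913 to 2.49 over all transcripts. The list of 3′ end formation had a median of 0.877 in Paf1 deletion with or without that setting, against 2.87 and 2.49 over all transcripts.

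The named genes of these lists were picked by their largest ratio in any library, so the libraries they stand in follow from that choice. Several were called in other libraries too. spt6 was raised in Paf1-G104R at 4.65, clr1 in Rot1-Q472Stop at 3.29, clr2 in Leo1-W157Stop at 3.63, and set2 in Rot1-Q472Stop (8 reads against 0). swd22 was lowered in Paf1 deletion at 0.361, and epe1 and hrr1 in Leo1 deletion at 0.445 and 0.167. In Paf1 deletion spt16, a histone chaperone gene, held 102 body reads against 58, a ratio of 8.40 (6.03 to 11.8), and clr1, of a histone deacetylase complex, 131 against 47, a ratio of 13.3 (9.47 to 19.0). There spt6 had 6.25 (2.86 to 13.99), clr2 5.88 (2.65 to 13.3), cft1 13.5 (5.09 to 41.9) and set1, an H3K4 methyltransferase gene, 47.8 (6.80 to 2073) from 10 reads against 1. set2, for H3K36 methylation, held 10 against 0, 15.9-fold higher with wild type at 3 reads and an exact lower bound of 10.7. In Cdc73-G313R 0 reads stood at arb2, ers1, hrr1 and stc1 of the RNAi list, against 103, 65, 64 and 18 in wild type, and at shf1, brl2, dhp1 and swd22, against 95, 31, 49 and 53. lsk1 and iws1 held 1 read each there, ysh1 3, a ratio of 0.131 (0.0264 to 0.395), and epe1 8, a ratio of 0.228 (0.0962 to 0.462). The share of rRNA in Cdc73-G313R and its general shift, given above, move with these values, and their part in them was not tested.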

How the data were processed

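Log2 values of 17962 elements in 8 libraries were deposited by the authors as 1 table. CASAVA 1.8 and Bowtie 0.9.9.1 are named in the submitters' processing notes, and of the build, annotation and way of counting nothing is given in the sources used here. In each library the lowest value was 3, and the linear values less 8 summed to 907489, so the deposited values are read as log2(level + 8), with levels scaled by length and to a common total. The value of 1 read was found by least squares on multiples from 1 to 10, and 79.6% to 88.6% of values above 0 then came out whole within 0.05. Other values hold fractions and were rounded. Body reads are transcript reads minus UTR reads. Each level ratio has an exact 95% interval (Clopper-Pearson, given both libraries' reads in all). Amplified reads without identifiers do not count molecules, so these intervals, and the limit of 3 reads for a count of 0, cover counting error only. No count model or p-value was used. Of 5086 transcripts 5067 matched the RefSeq gene table (ASM294v3), which gave symbols. The procedure was tested on simulated reads. Python 3.11.15, numpy 2.4.6, pandas 2.3.3 and scipy 1.17.1 were used.

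The members and lists were chosen with earlier results of these data known. Named were the 5 genes, their nearest and overlapping transcripts, the 3 most similar transcripts per gene, and up to 4 called genes per list with at least 10 reads, by largest log2 ratio. Of these, 1 is not reported here. The span of 10 kb, and the genes named within it beyond the nearest, were chosen after values were seen.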

Additional observations from a re-analysis of the deposited data

How the results depend on the processing

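The 7 raised bodies were kept under all 3 other scalings of the libraries and over the whole transcript, where the ratios were lower: paf1 11.6 in Paf-1Q264Stop and 3.70 in Cdc73-G313R, leo1 9.33 in Leo1-W157Stop, cdc73 27.1 in Rot1-Q472Stop and 2.51 in Paf1 deletion, and prf1 714 in Paf1-G104R and 11.9 in Paf1 deletion. With an interval wholly beyond 2-fold 5 of 7 were kept, and the count fell to 0 in Paf1 deletion. Against the sum of the 7 other libraries 4 were kept. The count was 0 in Cdc73-G313R and 1 in Paf1 deletion, where cdc73 (0.865) and prf1 (0.0843) fell below 1. The 1 there was tpr1, at 2.19 (1.09 to 4), which was not raised against wild type. For cdc73 and prf1 in Paf1 deletion, and for paf1 in Cdc73-G313R, the sum holds the gene's highest library, so it cannot check these calls. Scaling by library total gave 2 raised bodies in Paf1-G104R, with cdc73 added at 2.81. A total without rRNA gave 4 in Paf1 deletion, with leo1 (2.07) and tpr1 (2.33) added. Lowered bodies depended more on these choices. Their count was 0 in Cdc73-G313R and 0 in Rot1-Q472Stop under each of the 3 scalings and with an interval wholly beyond 2-fold. In Paf-1Q264Stop it was 1 with a median difference of 0, with scaling by library total and over the whole transcript, and 0 with the wider interval rule. Over the whole transcript it was 0 in Leo1 deletion and in Rot1-Q472Stop and 1 in Cdc73-G313R, and leo1 turned to 1.99 in Leo1 deletion and 1.09 in Cdc73-G313R, as its UTR reads then count. Against the 7 other libraries, which include the high one, lowered bodies numbered 4 in each of Leo1 deletion, Cdc73-G313R and Paf-1Q264Stop, 3 in each of Rot1-Q472Stop, Paf1-G104R and Leo1-W157Stop, and 2 in Paf1 deletion. Rounding reads down gave 1 in Paf1-G104R. Where no cause is given, the cause was not tested.

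No paired analysis was possible because each strain has 1 library. For the same reason no replicate was left out. With 1 wild-type body read, a loss at prf1 was not detectable in any library.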
